A study of Mus musculus with 12 samples.

Results

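A set of 9 genes of peroxisomal fatty acid oxidation was examined in scraped mouse epidermis with and without Pparg in the Cytokeratin14 lineage. The members were chosen by symbol (Slc27a2, Acox3, Acoxl, Ehhadh, Hsd17b4, Acaa1a, Acaa1b, Crat and Crot), and all 9 are among the 14533 named genes of the count table. A single RNA library was made from each of 12 mice, 6 WT and 6 Pparg-/-epi. Every mouse, the WT mice included, was C57BL/6 and carried Pparg (flox/flox). The Pparg-/-epi mice also carried a Cytokeratin14 promoter-driven Cre, while the WT mice were their siblings without Cre (Cre-/-). None of the mice was treated, and by the labels both groups were 8 to 13 weeks old. The study's methods and supplement give other ages for some of the mice, and those of the labels were used here. The WT group held 3 female and 3 male mice, and the Pparg-/-epi group 4 female and 2 male mice. Dorsal skin without lesions was snap frozen and scraped down to the superficial vascular bed. Each library therefore mixes interfollicular epidermis with hair follicle, sebaceous gland and superficial dermis. Cytokeratin14-driven Cre acts in basal keratinocytes and in the cells that descend from them, which include hair follicle and sebaceous gland cells, and fibroblasts, adipocytes and immune cells of the same scraping keep the floxed gene intact.

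Total counts ranged from 10120840 to 18851255 per library. RIN, the RNA integrity number, was 7.4, 8.6, 6.1, 7.1, 5.9 and 6.2 in WT replicates 1 to 6. In Pparg-/-epi replicates 7 to 12 it was 8.6, 8.5, 7.7, 7.7, 5.7 and 7.1. Levels are given in CPM, read counts scaled to a common library size with TMM factors, and a mean carries the SD over its 6 mice. Pparg itself averaged 4.16 ± 5.23 CPM in WT mice and 3.91 ± 2.06 CPM without epidermal Pparg (log2 fold change -0.10, SE 0.71, adjusted p = 0.949). Cre removes exons but not the transcript, and the table gives 1 count per gene, so this level does not check the genotype. The epidermal label was borne out by the 7 keratinocyte markers listed, led by Krt10 and Krt5, which summed to between 16486 and 42797 CPM in WT and between 27929 and 51178 CPM in Pparg-/-epi libraries. The scrapings differed in what else they held. Dermal fibroblast markers summed to between 1014 CPM (replicate 6) and 34533 CPM (replicate 1) in WT libraries. In Pparg-/-epi libraries they summed to between 5324 and 11169 CPM. Hair follicle keratin markers summed to between 17.2 and 2094 CPM in WT and between 157 and 4568 CPM in Pparg-/-epi libraries. Skeletal muscle markers summed to 11968 CPM in WT replicate 5 and to between 4.08 and 481 CPM in the remaining 11 libraries. Adipocyte markers reached 249 CPM in WT replicate 2. The number of mice is the number of replicates, and in bulk tissue fewer cells of a type cannot be told apart from less RNA per cell.

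Peroxisomes shorten very long chain, branched and dicarboxylic fatty acids by β-oxidation. A fatty acid is activated to its CoA ester, an acyl-CoA oxidase introduces a double bond and releases hydrogen peroxide, a bifunctional enzyme hydrates and dehydrogenates the product, and a thiolase removes acetyl-CoA. Carnitine acyltransferases then convert the shortened chains and the acetyl-CoA to carnitine esters that can leave the organelle. In liver this pathway is the classic target of PPARα, and in skin it is used by sebaceous cells and keratinocytes, both of which make large amounts of long chain lipid.

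Of the 9 members, 3 were lower in Pparg-/-epi mice by a large margin. Smaller decreases, with 95% intervals wholly negative, were fitted for Crat (log2 fold change -1.09), Acox3 (-0.84), Ehhadh (-0.68) and Hsd17b4 (-0.25). The intervals of Acaa1a and Crot held both signs. Whether Crat, Acox3 and Ehhadh passed the rule given below depended on the test and the fit. Slc27a2, an acyl-CoA synthetase and transporter of very long chain fatty acids, averaged 3.69 ± 1.61 CPM in WT mice against 0.187 ± 0.222 CPM in Pparg-/-epi mice, a 19.8-fold difference of the means. Acoxl, the acyl-CoA oxidase-like gene, averaged 9.66 ± 11.2 and 0.119 ± 0.167 CPM, and Acaa1b, one of a pair of peroxisomal thiolases, 3.84 ± 6.94 and 0.164 ± 0.203 CPM. A gene was called altered if its log2 fold change was 0.6 or more in size and its adjusted p was under 0.05 (edgeR quasi-likelihood test, Benjamini-Hochberg over all genes). By this rule 3 of 9 members were altered, all lower in Pparg-/-epi, where 10.3% of all genes were altered, 5.08% lower and 5.19% higher. The fitted log2 fold change was negative for 8 of 9 members, against 7487 of 14533 genes. Acaa1a, at -0.06, is among the 8, and its sign was not stable. The median was -0.84 for the members and -0.01 for all genes. In 3 of 9 members (Slc27a2, Acoxl and Ehhadh) every Pparg-/-epi library lay below every WT library, against 3.95% of all genes, and in none did every Pparg-/-epi library lie above, which also held for 3.95% of all genes. The study listed Slc27a2, Acoxl, Acaa1b and Crat from these same libraries, so for them these counts are not independent evidence.

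The table lists only genes over a low level, and each listed gene exceeds 0.5 CPM by total counts in at least 6 libraries. The other 6 members passed that level in all 12 libraries. The 3 altered members did not. Slc27a2 exceeded it in 6 WT and 1 Pparg-/-epi library, Acoxl in 6 WT and 0 Pparg-/-epi libraries, and Acaa1b in 5 WT and 1 Pparg-/-epi library. Slc27a2 and Acoxl thus reached 6 libraries by their WT level alone, and Acaa1b by 5 WT libraries and 1 Pparg-/-epi library. The listing of the 3 rests wholly (Slc27a2, Acoxl) or mostly (Acaa1b) on WT libraries.

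**Figure D1:**
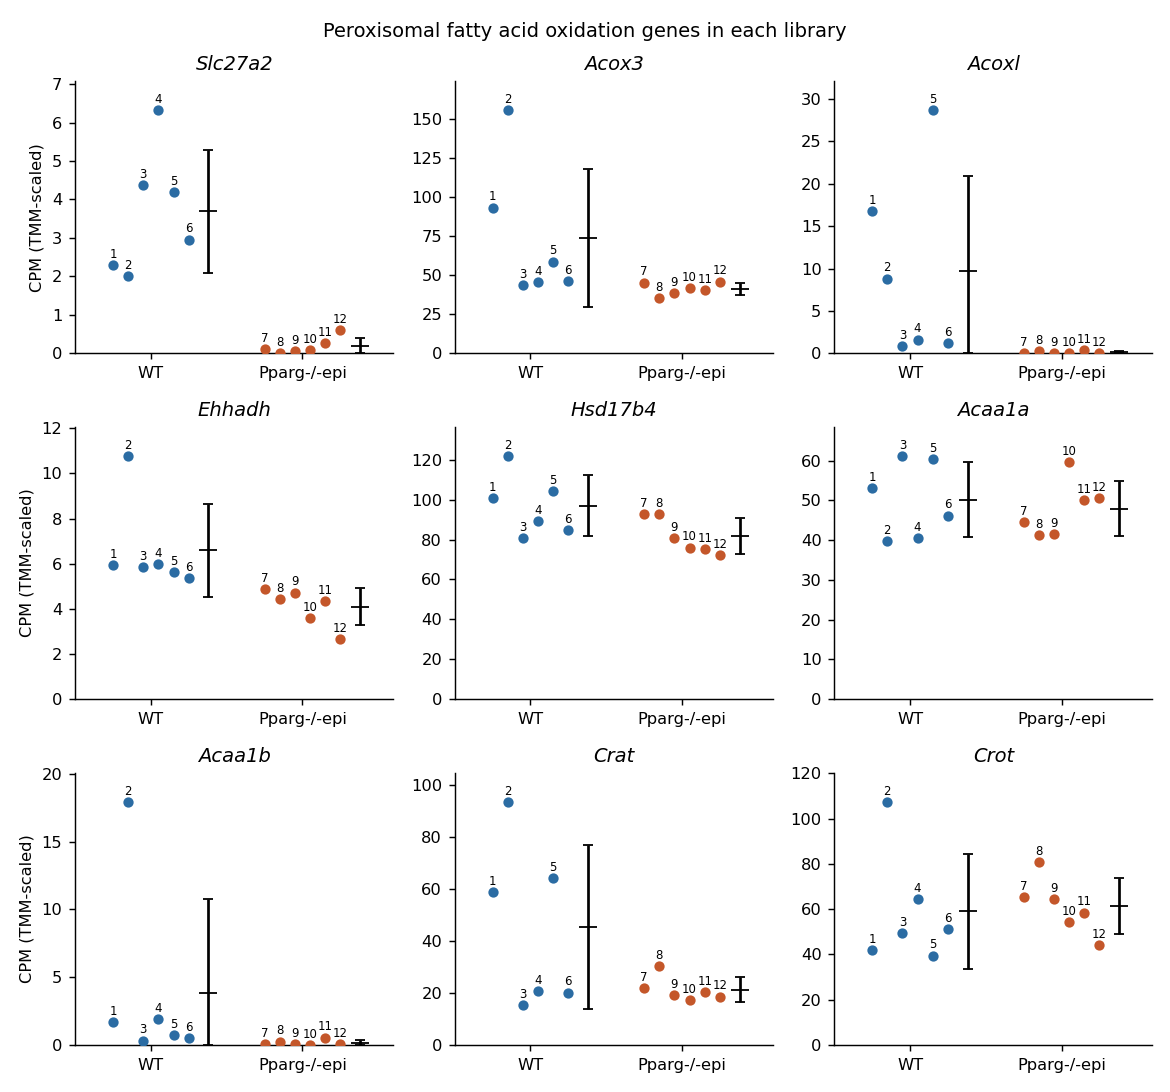
CPM of each of the 9 members in the 6 WT (blue) and 6 Pparg-/-epi (orange) libraries, on a linear axis from 0 with its own range in each panel. Points are libraries with their replicate numbers, and the black dash with bars is the mean ± SD, cut at 0. WT replicate 2 is the highest WT library for 6 of 9 members.

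**Figure D2:**
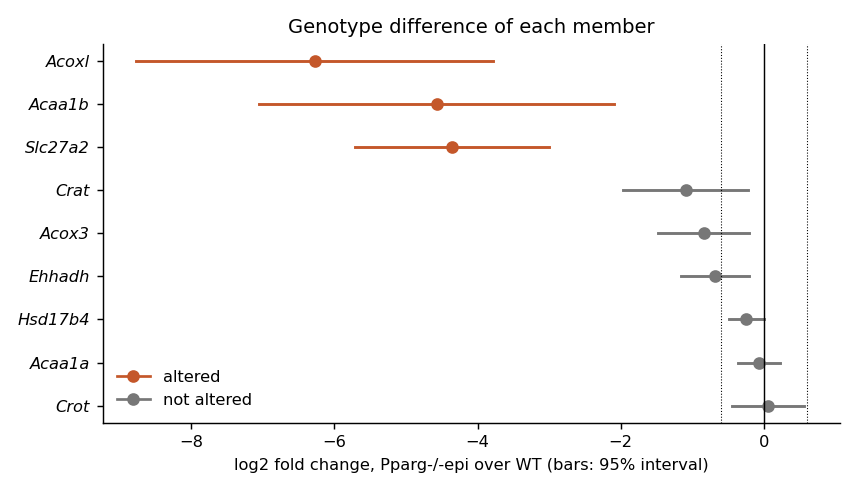
Log2 fold change (Pparg-/-epi over WT) of each member from the edgeR quasi-likelihood fit, with its 95% interval. Dotted lines mark 0.6 in either direction, and the 3 altered members (orange) lie between -6.28 and -4.36.

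The windows around the annotated start sites of the 3 altered members and of Acaa1a, the near copy that was not altered, are shown because PPARs bind DNA with RXR at repeats of the half-site AGGTCA. Each window holds 250 bases before and 50 bases after the start, on the gene's own strand, from RefSeq (GRCm38.p6), which has such a window for 7 of the 9 members. The windows are chr2:126552774-126553073 for Slc27a2, chr2:127854378-127854677 for Acoxl, chr9:119341044-119341343 for Acaa1a and chr9:119157044-119157343 for Acaa1b. Capitals mark matches on either strand to AGGTCA (Slc27a2) or to the promoter element CCAAT (the other windows), and adjoining capitals in Acaa1b are overlapping matches on both strands.
Slc27a2: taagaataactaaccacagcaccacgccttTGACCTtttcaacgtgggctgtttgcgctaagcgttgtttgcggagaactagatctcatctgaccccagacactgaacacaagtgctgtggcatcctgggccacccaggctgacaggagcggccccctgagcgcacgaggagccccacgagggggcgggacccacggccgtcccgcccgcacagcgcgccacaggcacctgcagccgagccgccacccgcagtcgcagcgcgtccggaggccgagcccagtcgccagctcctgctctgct
Acoxl: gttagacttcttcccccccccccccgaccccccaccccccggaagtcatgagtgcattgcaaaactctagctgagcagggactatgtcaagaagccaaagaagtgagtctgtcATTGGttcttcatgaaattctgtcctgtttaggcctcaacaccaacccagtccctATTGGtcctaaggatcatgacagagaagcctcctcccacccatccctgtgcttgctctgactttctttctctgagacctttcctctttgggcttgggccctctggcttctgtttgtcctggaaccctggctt
Acaa1a: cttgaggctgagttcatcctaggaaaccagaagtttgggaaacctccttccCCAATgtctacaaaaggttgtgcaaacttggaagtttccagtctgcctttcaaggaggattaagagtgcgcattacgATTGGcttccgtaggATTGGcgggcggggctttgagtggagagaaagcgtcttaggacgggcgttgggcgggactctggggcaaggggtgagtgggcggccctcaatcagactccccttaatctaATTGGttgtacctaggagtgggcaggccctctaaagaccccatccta
Acaa1b: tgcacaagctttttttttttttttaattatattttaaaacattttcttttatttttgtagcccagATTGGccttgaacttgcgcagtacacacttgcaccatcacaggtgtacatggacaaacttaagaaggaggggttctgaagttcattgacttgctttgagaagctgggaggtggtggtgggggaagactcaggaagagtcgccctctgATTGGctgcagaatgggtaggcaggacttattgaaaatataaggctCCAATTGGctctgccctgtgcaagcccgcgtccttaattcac

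Slc27a2 held 1 half-site, on the reverse strand at position -220 from the start, and none of the other 6 windows held one. AGGTCA occurs in 16.3% of the 32851 mouse promoter windows, and its direct repeat with 1 base between the copies, which no member's window held, in 0.0396%. CCAAT was present 4 times each in Acaa1a and Acaa1b, 2 times in Acoxl and once each in Ehhadh and Crot, and it occurs in 37.4% of all windows. These are matches of letters only, and no binding was measured.

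Slc27a2 (chr2:126553024-126588243, mm10, plus strand) encodes the fatty acid transport protein that activates very long chain fatty acids at the peroxisome. It had 36, 38, 41, 94, 53 and 47 counts in WT replicates 1 to 6, and 2, 0, 1, 1, 3 and 7 counts in Pparg-/-epi replicates 7 to 12. All WT libraries, at 2.02 to 6.32 CPM, lay above all Pparg-/-epi libraries, of which the highest was at 0.601 CPM. The log2 fold change was -4.36 (SE 0.63, 95% interval -5.71 to -3.001, adjusted p = 9.42e-04). WT replicate 2, the highest WT library for most other members, was the lowest for Slc27a2, and WT replicate 4 was the highest.

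Of the acyl-CoA oxidase members, Acoxl was altered and Acox3 was not. Acoxl (chr2:127854628-128123892, plus strand) is a gene of the acyl-CoA oxidase family by sequence. It had 263, 166, 8, 24, 363 and 19 counts in WT replicates 1 to 6 and 1, 5, 0, 0, 4 and 0 counts in Pparg-/-epi replicates 7 to 12. The WT libraries spanned a 33.7-fold range, from 0.852 CPM in replicate 3 to 28.7 CPM in replicate 5, and still did not overlap the Pparg-/-epi libraries, which reached 0.362 CPM. The log2 fold change of Acoxl was -6.28 (SE 1.15, adjusted p = 0.00365), and the ratio of the means was 80.9. Acox3 (chr5:35583060-35613801, plus strand) oxidizes branched chain acyl-CoAs. It was at 93.5, 156, 43.6, 45.6, 58.8 and 46.3 CPM in WT replicates 1 to 6, and between 35.2 and 46.04 CPM in Pparg-/-epi libraries with a median of 41.3. WT replicates 1 and 2 stood above the rest, and the lower WT libraries overlapped the Pparg-/-epi range. The log2 fold change of Acox3 was -0.84 (SE 0.29, 95% interval -1.48 to -0.21, adjusted p = 0.0706), and without WT replicate 2 it was -0.49.

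Neither bifunctional enzyme was altered, although Ehhadh separated the groups. Ehhadh (chr16:21761285-21787834, minus strand) encodes the L-bifunctional enzyme, which handles straight chain and dicarboxylic substrates. Its level was 5.94, 10.8, 5.86, 5.98, 5.61 and 5.35 CPM in WT replicates 1 to 6 and 4.89, 4.43, 4.72, 3.58, 4.34 and 2.66 CPM in Pparg-/-epi replicates 7 to 12. All WT libraries were above all Pparg-/-epi libraries, and 5 of the 6 WT values lay within 0.7 CPM of each other. The log2 fold change of Ehhadh was -0.68 (SE 0.22, 95% interval -1.16 to -0.20, adjusted p = 0.0541), which missed the threshold.

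Hsd17b4 (chr18:50128201-50196270, plus strand) encodes the D-bifunctional enzyme, which also handles branched chains and bile acid intermediates. It was the most abundant member per transcript length, at 80.6 to 122 CPM in WT (median 94.9) and 72.2 to 93.0 CPM in Pparg-/-epi libraries. The ranges overlapped, and the log2 fold change was -0.25 (SE 0.11, 95% interval -0.49 to -0.01, adjusted p = 0.160).

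The thiolases Acaa1a and Acaa1b are near copies that differed in their values. They lie 184201 bases apart on chromosome 9, Acaa1a at chr9:119341294-119350295 on the plus strand and Acaa1b at chr9:119148043-119157093 on the minus strand. Over 1471 aligned bases of their longest GENCODE transcripts 95.7% were identical. Acaa1b had 26, 338, 3, 28, 9 and 8 counts in WT replicates 1 to 6 and 1, 4, 1, 0, 6 and 1 counts in Pparg-/-epi replicates 7 to 12. WT replicate 2 alone held most of the WT counts, and WT replicate 3 at 0.320 CPM lay below Pparg-/-epi replicate 11 at 0.543 CPM, so the groups overlapped. The log2 fold change of Acaa1b was -4.57 (SE 1.15, adjusted p = 0.0180), and without WT replicate 2 it was -2.68 (adjusted p = 0.0180). Acaa1a was at 53.1, 39.8, 61.2, 40.5, 60.3 and 46.1 CPM in WT and at 41.3 to 59.6 CPM in Pparg-/-epi libraries, and its groups overlapped throughout. Its log2 fold change was -0.06 (SE 0.13, adjusted p = 0.797) with a 95% interval from -0.36 to 0.23, and the sign turned positive when sex or RIN entered the fit.

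Per transcript length, Acaa1b made up 32.2% of the summed thiolase pair in WT replicate 2, between 0.548% and 4.67% in the other WT libraries, and between 0% and 1.13% in Pparg-/-epi libraries. Of the 75-base stretches of Acaa1b transcripts 24.4% also occur in Acaa1a, and of those of Acaa1a 9.5% occur in Acaa1b. Reads with several positions were removed before counting, and how many read pairs the near copies lost was not tested, so the levels of both genes are uncertain. Of the remaining members, 0.112% of the stretches of Crot occurred in other genes and none of those of the other 6.

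The carnitine acyltransferases Crat and Crot also differed in their values. Crat (chr2:30400476-30415748, minus strand) encodes carnitine acetyltransferase, which acts on acetyl-CoA and short chains in mitochondria and peroxisomes. It was at 58.8, 93.6, 15.4, 20.8, 64.3 and 20.1 CPM in WT replicates 1 to 6, and between 17.4 and 30.4 CPM in Pparg-/-epi libraries with a mean of 21.3 ± 4.70. The WT libraries split, with replicates 1, 2 and 5 above every Pparg-/-epi library and replicates 3, 4 and 6 within or below their range. The log2 fold change of Crat was -1.09 (SE 0.41, 95% interval -1.97 to -0.22, adjusted p = 0.0891). Its exons overlap those of Dolpp1 on the opposite strand by 54 bases, and the sources used here do not say whether counting used strand.

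Crot (chr5:8966048-8997146, minus strand) encodes carnitine octanoyltransferase, which exports medium chain products of peroxisomal oxidation. WT libraries were at 41.9, 107, 49.5, 64.3, 39.4 and 51.4 CPM, and Pparg-/-epi libraries between 44.2 and 80.9 CPM with a mean of 61.3 ± 12.3. The groups overlapped with WT replicate 2 above all, and the log2 fold change was 0.05 (SE 0.23, adjusted p = 0.908) with a 95% interval from -0.45 to 0.56. Its sign turned negative when sex or RIN entered the fit, so no direction is given for Crot.

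Levels can be compared between genes only per length, as CPM per kilobase of the deposited gene length. In WT libraries the means ran from Hsd17b4 (36.1) through Acaa1a (28.5), Crot (21.1), Acox3 (18.7), Crat (10.4), Acoxl (3.38), Acaa1b (2.30) and Ehhadh (2.19) to Slc27a2 (1.605), and the ranges of each neighbouring pair overlapped. The place of Acaa1b rests on WT replicate 2, at 10.7 per kilobase. Its other 5 WT libraries, at 0.192 to 1.13, lay below every WT library of Ehhadh, at 1.78 to 3.58. In Pparg-/-epi libraries Hsd17b4 (30.4), Acaa1a (27.3) and Crot (21.9) again led with overlapping ranges. Acox3 (10.4), Crat (4.86) and Ehhadh (1.36) followed, each clear of its neighbours' ranges. Acaa1b (0.0982), Slc27a2 (0.0811) and Acoxl (0.0418) came last and overlapped one another.

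The WT libraries that were high for Crat and Acoxl were also those with the most RNA from sebaceous gland marker genes. Of a list of 10 sebocyte markers 7 were among the genes analysed. Of these 6 were altered, all lower in Pparg-/-epi, against 5.08% of all genes. The study had listed these 7, and also Acaa1b, as sebaceous gland genes reduced in these same libraries, so this count is not independent evidence. Their summed level was 602, 1036, 33.5, 93.2, 364 and 42.6 CPM in WT replicates 1 to 6 and between 11.1 and 25.9 CPM in Pparg-/-epi libraries. Scd3 and Fa2h, the most abundant of them, were each at 0 in 1 Pparg-/-epi library, Awat1 was at 0 in 2, and the other 4 were at 0 in none. After subtraction of each genotype's mean from log2 CPM, Crat followed this sum over the 12 libraries with Pearson's r = 0.97 (Spearman's rho 0.98), Acox3 with 0.85 (0.69), Acoxl with 0.84 (0.90), Hsd17b4 with 0.83 (0.79) and Acaa1b with 0.73 (0.66). Without the 2 libraries farthest from the median sum, r was 0.94 for Crat, 0.88 for Acoxl, 0.71 for Acox3 and 0.66 for Hsd17b4, but 0.35 for Acaa1b. Ehhadh (0.51), Crot (0.31) and Acaa1a (-0.24) had smaller values, which were 0.18, -0.29 and 0.34 without those 2 libraries. Slc27a2 had r = -0.38, and its WT level of 4.37 CPM in replicate 3, where the sebocyte sum was lowest, was above the 2.02 CPM of replicate 2, where that sum was highest. Within each group alone, the r of Acox3 with the sebocyte sum was 0.90 in WT but -0.56 in Pparg-/-epi libraries. In the same order r was 0.98 and 0.94 for Crat, 0.87 and 0.74 for Acoxl, 0.96 and 0.63 for Hsd17b4, and 0.76 and 0.64 for Acaa1b.

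These correlations are descriptions over 12 libraries, and all genes of a library share its 1 scraping. Crat also followed the endothelial (r = 0.87) and adipocyte markers (0.84), Hsd17b4 the endothelial markers (0.92), and Crot ran against the keratinocyte markers (-0.91). Acoxl, highest in the muscle-rich WT replicate 5, followed the skeletal muscle markers with r = 0.78, and its log2 fold change was -5.56 without that library. Acaa1b (0.85), Ehhadh (0.81) and Crot (0.81) followed the leukocyte markers more closely than the sebocyte markers, and Acaa1b (-0.78) and Ehhadh (-0.73) also ran against the keratinocyte markers. Without the 2 libraries farthest from the median of the leukocyte sum, r was 0.47 for Acaa1b, 0.65 for Ehhadh and 0.84 for Crot. The same step for the keratinocyte sum gave -0.29 for Acaa1b, -0.28 for Ehhadh and -0.68 for Crot. For the endothelial sum it gave 0.79 for Crat and 0.88 for Hsd17b4, for the adipocyte sum 0.67 for Crat, and for the muscle sum 0.62 for Acoxl. The part of cell composition in the differences of the members was not tested. Across the groups the sebocyte sum moved with the genotype, and the lowest WT library (33.5 CPM) was above the highest Pparg-/-epi library (25.9 CPM).

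**Figure D3:**
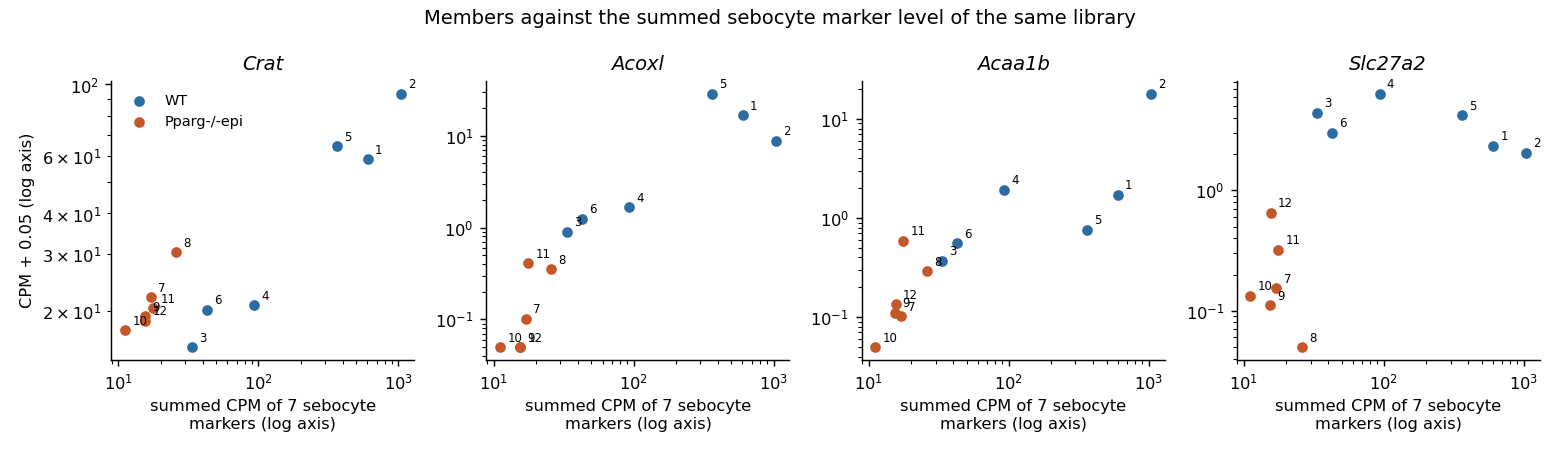
CPM + 0.05 of Crat, Acoxl, Acaa1b and Slc27a2 (log axis) against the summed CPM of 7 sebocyte markers in the same library (log axis), with WT in blue, Pparg-/-epi in orange and replicate numbers beside the points. Crat rises along the WT libraries from 15.4 to 93.6 CPM with the marker sum, whereas the WT libraries for Slc27a2 stay between 2.02 and 6.32 CPM.

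Among themselves, the members formed no single pattern over the 12 libraries. With genotype means subtracted, the closest pairs were Hsd17b4 with Crat (r = 0.88), Acoxl with Crat (0.87), Ehhadh with Crot (0.85) and Acox3 with Crat (0.80). Acaa1a ran against Crot (-0.76) and Acaa1b (-0.58), and Slc27a2 had negative values with every member except Acaa1a (0.28).

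The genes whose levels were most like each member over the 12 libraries, with genotype means subtracted, were picked from 13800 genes with a mean of at least 1 CPM. For Acoxl they were Cers4 (r = 0.96), Slc41a3 (0.94) and Fgf13 (0.94), of which Cers4, a ceramide synthase, was also altered (log2 fold change -2.38, adjusted p = 0.0112). The study lists Cers4 among the sebaceous gland genes reduced in these libraries. For Crat they were Cd200 (0.97), Mgst1 (0.97) and Xylt2 (0.96), and for Acox3 Elovl7, Slc5a8 and Camk2n1 (each 0.95). For Slc27a2 they were Snord53, Zmat1 and Topors (each 0.92), for Hsd17b4 Fmod, Zfp462 and Fzd2 (each 0.97), and for Crot Ctbs (0.98), Kat2b (0.95) and Pdzd4 (0.94). For Ehhadh they were Ciita (0.97), Ccr1 (0.94) and Itgal (0.94), genes of leukocytes, for Acaa1b Il10ra (0.91), Emx2 (0.90) and Adamts8 (0.90), and for Acaa1a Akt1s1 (0.98), Sdr16c5 (0.96) and Dohh (0.95). Besides Cers4, Zmat1 was altered lower (log2 fold change -1.22, adjusted p = 0.00297). Elovl7 (0.79, adjusted p = 0.0199), Slc5a8 (1.81, adjusted p = 0.0153) and Ccr1 (3.21, adjusted p = 0.0180) were altered higher, and the remaining like genes were not altered. Without the 2 most distant libraries r fell to 0.62 for Il10ra and stayed between 0.75 and 0.96 for the other like genes.

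The 3 altered members were low in both sexes. Slc27a2 averaged 3.76 CPM in 3 WT females and 0.109 CPM in 4 Pparg-/-epi females, and 3.62 CPM in 3 WT males and 0.342 CPM in 2 Pparg-/-epi males. Acoxl averaged 3.87 and 0.179 CPM in females, and 15.4 CPM in WT males against 0 counts in both Pparg-/-epi males. Acaa1b averaged 6.77 and 0.224 CPM in females and 0.898 and 0.0429 CPM in males. No genotype by sex interaction was called for a member (0 of 9 at an adjusted p under 0.05, edgeR quasi-likelihood test, and 0 of 9 at an unadjusted p under 0.05), nor for any gene of the table at the adjusted threshold (0%). With 2 Pparg-/-epi males the estimates were imprecise, at -6.32 (SE 3.61) for Acoxl and 0.81 (SE 4.16) for Acaa1b. The 0 is therefore not read as an equal difference in both sexes.

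How many members were altered depended on the test and the libraries. With the likelihood ratio test of edgeR, the test that the study's methods name, 5 members were altered (background 5.71% of genes lower), and with DESeq2 5 (5.85%), in both cases with Acox3 and Crat added. DESeq2 gave no adjusted p for Acaa1b and added Ehhadh. With RIN as a covariate 6 were altered (4.45%), namely Acox3, Ehhadh and Crat besides the 3 members above, and with sex as a covariate 4 (5.07%), Ehhadh being the fourth. In female mice alone only Slc27a2 was altered (adjusted p = 0.0160, background 2.46%), and in male mice alone none was (0.0482%), with 4 of 9 at an unadjusted p under 0.05. A minimum of 10 counts in every library removes the 3 altered members by construction and left 0 altered (4.89%), with 3 of the remaining 6 below an unadjusted p of 0.05. For the male mice and for this filter the share of all genes under that unadjusted p is not given. Nothing is therefore read from these 4 and 3 members. Without WT replicates 3 to 6, whose mouse names share a number in the labels, 5 members were altered (1.53%), with Crat at a log2 fold change of -1.82 (adjusted p = 0.00367) and Acox3 at -1.58 (adjusted p = 0.00229). Without WT replicates 2 and 5 together, the libraries with the most adipocyte and muscle marker RNA, the 3 members were altered (5.9%) and Crat was at -0.46. These libraries also had sebocyte marker sums of 1036 and 364 CPM, against 602, 33.5, 93.2 and 42.6 CPM in WT replicates 1, 3, 4 and 6. Which of these marker levels bears on the value of Crat was not tested.

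Further genes of the peroxisome were read from the same fit. Of 27 further genes of peroxisomal fatty acid oxidation 24 were analysed. An unadjusted p under 0.05 was found for 8 of them, against 4282 of all 14533 genes, so no excess is read from the 8. By the rule for altered genes 0 of the 24 passed, also with the likelihood ratio test and DESeq2. In 9 of 25 alternatives 1 or 2 of them were altered, with 2 without WT replicate 2, Pparg-/-epi replicate 9 or Pparg-/-epi replicate 10 and 1 without WT replicate 1, 3, 4 or 6. At an adjusted p under 0.05 regardless of size, 4 of the 24 were lower (7.84% of all genes) and 1 was higher (7.54%). The 4 were Scp2, the sterol carrier and branched chain thiolase, at 131 ± 16.4 CPM in WT mice against 89.03 ± 10.8 CPM in Pparg-/-epi mice (log2 fold change -0.56, adjusted p = 0.00415), Decr2, a reductase for unsaturated chains (-0.58, adjusted p = 0.00219), Lonp2, a peroxisomal protease (-0.57, adjusted p = 3.62e-04), and Hacl1, the lyase of α-oxidation (-0.45, adjusted p = 0.0353). In each of these 4 every Pparg-/-epi library lay below every WT library, against 3.95% of all genes. The 4 were picked by adjusted p from the same fit, so this separation is not independent evidence. Nudt19, a CoA hydrolase, was higher (0.44, adjusted p = 0.0193).

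Acox2, the bile acid and branched chain oxidase, was at 0.320 to 19.7 CPM in WT and 1.55 to 4.01 CPM in Pparg-/-epi libraries, which overlapped, and its log2 fold change of -0.88 (SE 0.81, adjusted p = 0.516) did not pass the test. Of the importers of acyl-CoA, Abcd2 was at a log2 fold change of -0.76 (SE 0.73, adjusted p = 0.540) and Abcd3 at -0.21 (SE 0.09, adjusted p = 0.118).

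Of 16 peroxisome biogenesis factors analysed 0 were altered, and the median log2 fold change was -0.24. An unadjusted p under 0.05 was found for 8 of the 16, against 4282 of all 14533 genes. At an adjusted p under 0.05 regardless of size 2 were lower (Pex6 and Pex7), against 7.84% of all genes. Of 13 other peroxisomal genes 1 was altered (0 to 3 over the 25 alternatives, with 3 without WT replicate 2), against 10.3% of all genes. This was Pxmp4, a peroxisomal membrane protein, at 24.9 to 62.1 CPM in WT and 13.4 to 21.2 CPM in Pparg-/-epi libraries, which did not overlap (log2 fold change -1.14, SE 0.24, adjusted p = 0.00707). Cat, the catalase that breaks down the hydrogen peroxide of the oxidases, was at 202 ± 25.4 and 241 ± 19.8 CPM (0.25, SE 0.10, adjusted p = 0.0985).

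Mitochondrial fatty acid oxidation genes had a median log2 fold change of -0.06 over 20 genes, of which 2 were altered, both lower (0 to 2 over the alternatives). Beside this count and that of the next list stands the 10.3% of all genes that were altered, 5.08% lower. Eci1, an enoyl-CoA isomerase, was at 16.8 ± 2.41 and 10.4 ± 2.22 CPM (-0.70, adjusted p = 0.0116), and Acad10, an acyl-CoA dehydrogenase, at 10.9 ± 2.31 and 6.604 ± 1.09 CPM (-0.72, adjusted p = 0.0152). Of 12 acyl-CoA synthetases 1 was altered (0 to 3 over the alternatives, with 3 without WT replicate 2 and 2 without WT replicate 4 or 6), namely Acsl6, at 2.45 ± 0.624 and 0.911 ± 0.444 CPM (-1.44, adjusted p = 0.0135), and the list's median was -0.45.

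Of 12 PPAR and RXR receptors and coactivators 1 was altered lower and 1 higher (0 to 3 in all over the alternatives), against 5.08% and 5.19% of all genes. Ppara, the receptor known for driving this pathway in liver, was at 28.3 to 41.6 CPM in WT and 10.4 to 16.2 CPM in Pparg-/-epi libraries without overlap (log2 fold change -1.31, SE 0.14, adjusted p = 1.67e-04). Ppargc1b, a coactivator of oxidative metabolism, was at 6.40 ± 1.05 and 11.3 ± 1.93 CPM (0.82, adjusted p = 0.00456). Ppard, the third receptor of the family, was at 53.7 ± 6.55 and 80.9 ± 11.7 CPM, a log2 fold change of 0.59 (adjusted p = 0.00370) that lies just under the size limit.

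**Figure D4:**
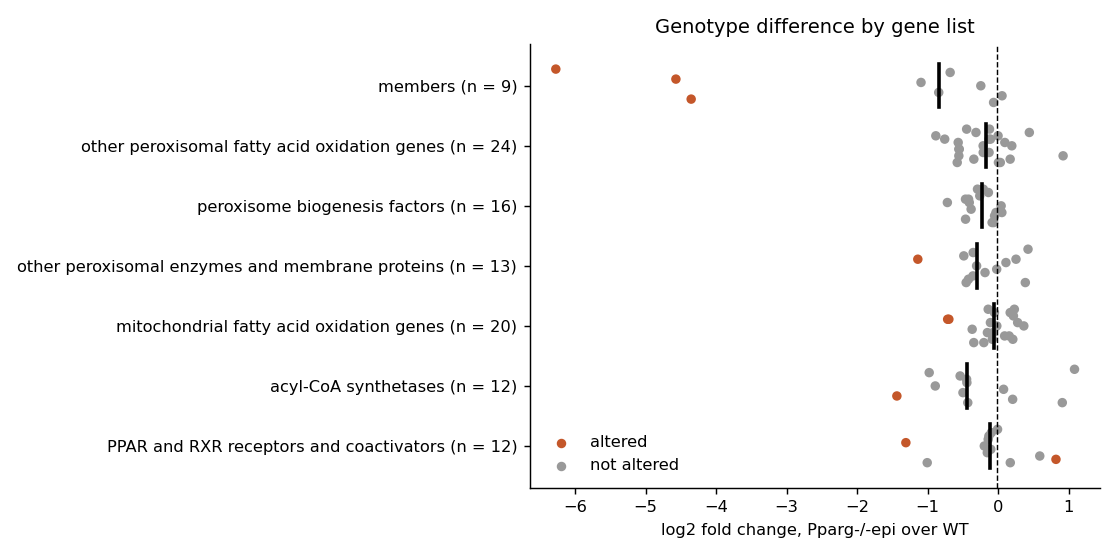
Log2 fold change (Pparg-/-epi over WT) of every analysed gene in 7 lists, with altered genes in orange, the list's median as a black bar and the median of all genes as a dashed line. The medians are -0.84 for the members, -0.17 for the other peroxisomal fatty acid oxidation genes, -0.24 for biogenesis factors and -0.06 for mitochondrial fatty acid oxidation.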

How the data were processed

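Dorsal epidermal scrapings of 6 WT and 6 Pparg-/-epi mice were sequenced as mRNA libraries. Per the study's methods and the submitters' processing notes, reads were aligned with STAR 2.5.2b to mm10, reads of low mapping quality or with several positions were removed, and genes were counted with featureCounts (Subread 1.5.1). The authors deposited raw counts per gene, without normalization. Of 17333 table lines 2800 without a gene symbol were left out. Removal of multi-mapped reads can lower the counts of near copies.

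Counts of all 14533 genes were normalized by TMM and tested with edgeR 4.0.16 (R 4.3.3) using the quasi-likelihood test. Genotype was the only term, and p-values were adjusted by Benjamini-Hochberg over the whole table. The SE is the absolute log2 fold change divided by the square root of F, and intervals are 95%. Every adjusted p comes from that test unless another is named. Alternatives were edgeR's likelihood ratio test, which is the test the study's methods name, DESeq2 1.42.0, RLE and no scaling factors, filters on low counts, sex, RIN or age as covariates, each sex alone, subsets of WT mice and each library left out. Leaving out WT replicates 2 and 5 together was chosen after seeing the data. The quasi-likelihood script was tested on simulated data. Correlations used log2 CPM with a prior count of 2.

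Genes to name were all members, up to 4 altered genes of each further list with the largest change, Acox2, Abcd2, Abcd3, Cat and the PPAR genes, the 3 genes most like each member, and of each marker list the 2 genes with the highest level. Some genes under this rule are not reported here. Scp2, Decr2, Lonp2, Hacl1, Nudt19, Pex6, Pex7, Awat1 and Dolpp1 were named after their values were seen. The members, lists and tests were chosen with earlier results of these data known. Plots used Python 3.11.15 with matplotlib 3.10.9.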

Additional observations from a re-analysis of the deposited data

Results flagged for a closer look

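In 4 of the 18 sets of 6 libraries (9 members in 2 groups), 1 library stood apart from the other 5 by Dixon's test at the 95% level. Chance gives this in about 1 of 20 independent, normally distributed sets. These sets share the same 12 libraries, so no excess is read from the 4. WT replicate 2 stood apart for Ehhadh at 10.8 CPM, for Acaa1b at 17.9 CPM and for Crot at 107 CPM. The same library had the highest summed sebocyte (1036 CPM), adipocyte (249 CPM) and leukocyte (2079.7 CPM) marker levels and the lowest keratinocyte marker level (16486 CPM) of all 12, and their part in these values was not tested. Pparg-/-epi replicate 8 stood apart for Crat at 30.4 CPM, and it had the highest sebocyte marker sum of its group (25.9 CPM).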

How the results depend on the processing

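Over 25 alternatives the count of altered members stayed at 3 or 4 in 18, and it was 5 with the likelihood ratio test, DESeq2 and without WT replicates 3 to 6 together, 6 with RIN as a covariate, 1 in female mice, 0 in male mice and 0 with a minimum of 10 counts in every library, which removes the 3 members by construction. Leaving out 1 library at a time gave 3 to 4 altered members, the fourth being Crat without WT replicate 3 (log2 fold change -1.27, adjusted p = 0.0421). Of all genes 651 were altered in female mice, 18 in male mice and 389 without WT replicates 3 to 6 together, fits with fewer mice, and 1116 to 2249 with 1 library left out, the highest count being without WT replicate 2 (cause not tested).

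The sign was not stable for 2 members that are near 0. Acaa1a was at 0.011 with sex, 0.034 with RIN, 0.069 in female mice and 0.058 without WT replicates 3 to 6 together. Crot was at -0.013 with sex, -0.075 with RIN, -0.14 in female mice and -0.27 without WT replicates 3 to 6 together, and it ranged from -0.057 to 0.30 with 1 library left out, being negative without WT replicate 1, WT replicate 5 or Pparg-/-epi replicate 8. The other 7 members kept their sign in every alternative run. With 1 library left out, Slc27a2 ranged from -5.15 to -4.09, Acoxl from -6.90 to -5.56, Acaa1b from -5.29 to -2.68, Crat from -1.27 to -0.76, Acox3 from -0.96 to -0.49 and Ehhadh from -0.75 to -0.50. The genotype by sex count was 0 in all 17 alternatives.

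Slc27a2, Acoxl and Acaa1b had 14, 10 and 13 counts over all 6 Pparg-/-epi libraries, so the depth limits how closely their fold changes are known. No paired analysis was possible because the groups share no replicate numbers and only 1 mouse name number, that of WT replicate 2 and Pparg-/-epi replicate 10, occurs in both. Whether such a number marks a litter was not stated in the sources used here.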
